A study of Mus musculus with 48 samples.

Results

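The 10 genes described here encode receptor chains for the cytokines that were given to NMM cells, a mouse melanoma line with a mutated NRAS gene. They are Ifngr1 and Ifngr2 for IFNγ, Ifnar1 and Ifnar2 for IFNα, Tnfrsf1a and Tnfrsf1b for TNF, Ltbr for lymphotoxin, Tgfbr1 and Tgfbr2 for TGF-β, and Il2rb for IL-2. They were taken by gene symbol and are 10 of the 49671 genes in the count table. Poly(A) RNA was sequenced from 48 samples as stranded libraries. The 12 groups were cells given IFNγ 100 ng/ml with TNF 10 ng/ml (the combination), IFNγ alone at 0.01, 1 or 100 ng/ml, TNF alone at 0.1, 1 or 10 ng/ml, TGF-β (10 ng/ml), lymphotoxin A1 B2 (LT, 2 ng/ml), IFNα1 (5000 U/ml) or IL-2 (6000 U/ml), and unstimulated cells. Each group had 1 library at each of 4 durations, 2, 6, 12 and 24 h of continuous stimulation. All groups share the same cell line and medium. The labels do not say whether the libraries of a group came from separate cultures.

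The total per library was 5612907 to 9663207 counts. Levels are given as CPM, that is, counts divided by the scaled total of their library, and a single count equalled 0.103 to 0.178 CPM. Because a group has no replicate at any 1 duration, an SD given with a group mean includes any change with time. A p-value for a mean difference sets it against the spread of stimulus effects over the durations, pooled over all groups. The index sequences in the column names show that the 2 h and 6 h libraries used 24 indexes and the 12 h and 24 h libraries the same 24 again, so a trend over time and these 2 index sets cannot be told apart. Of 10 melanocyte markers only Mitf passed the filter for low counts, at 3.52 to 12.8 CPM, and Dct and Mlana had no count in any library, so the defining markers of the labelled melanoma type were largely absent. Of 12 T and NK cell markers none passed the filter, 8 were at 0 in all 48 libraries, Cd3e, Cd8a and Cd4 among them, and the list summed to at most 1.07 CPM. Of 12 myeloid markers 3 passed, and the list summed to 34.6 to 85.6 CPM, mostly Cd14 (23.5 to 80.2 CPM). Mrc1 (0.617 to 22.8 CPM) and Cd68 (1.61 to 5.24 CPM) also passed, while Adgre1, C1qa and Tyrobp had no count. The myeloid sum was 41.2 to 85.6 CPM under IFNα1 and 52.1 to 58.0 CPM in unstimulated cells. Of 8 endothelial markers 1 passed, and the list summed to 2.91 to 26.9 CPM. The part of these markers in the results was not tested. In bulk RNA, fewer cells that express a gene and less RNA per cell cannot be told apart.

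As background, IFNγ binds IFNGR1, and IFNGR2 brings in the kinase JAK2. IFNα binds IFNAR2 with high affinity, and IFNAR1, which carries the kinase TYK2, completes the complex. TNF binds TNFR1 (Tnfrsf1a), which has a death domain, and TNFR2 (Tnfrsf1b), which has none, and both lead to NF-κB. The lymphotoxin β receptor activates the alternative NF-κB pathway through the kinase NIK. TGF-β binds TGFBR2, which phosphorylates TGFBR1, and this in turn phosphorylates SMAD2 and SMAD3. The IL-2 receptor pairs IL2RB with the common γ chain IL2RG, and IL2RA raises its affinity. The chains of the IL-2 receptor are mainly known from lymphocytes.

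Without cytokine, 9 of the 10 chains were transcribed at levels near or above those of a typical gene of these cells, and Il2rb was close to the limit of detection. Levels between genes were compared as CPM per kilobase of exon sequence, as the mean ± SD over the 4 unstimulated libraries. Tnfrsf1a was highest at 45.6 ± 3.25, followed by Ltbr at 36.6 ± 5.29, Tgfbr1 at 34.3 ± 4.58 and Ifnar1 at 18.6 ± 2.45. The others followed in the order Tgfbr2 at 9.75 ± 0.747, Tnfrsf1b at 8.63 ± 0.815, Ifngr2 at 8.23 ± 1.49, Ifngr1 at 6.68 ± 2.07 and Ifnar2 at 6.13 ± 0.587. Il2rb came last at 0.194 ± 0.0763 CPM per kilobase. The median of 12184 tested genes with a known length was 7.01 CPM per kilobase, so Tnfrsf1a stood at percentile 92, Ltbr at 89.3, Tgfbr1 at 88.4 and Il2rb at 2.76. The ranges of neighbours in this order overlapped except between Tgfbr1 and Ifnar1, between Ifnar1 and Tgfbr2, and between Ifnar2 and Il2rb. Partner chains were unequal at the RNA level in the receptors for TGF-β and IFNα, where Tgfbr1 and Ifnar1 were the more abundant, with ranges that did not overlap those of Tgfbr2 and Ifnar2. The ranges of Ifngr1 and Ifngr2 overlapped. Of the separate receptors for TNF, Tnfrsf1a was more abundant than Tnfrsf1b without overlap. With the longest transcript in place of the exon union as length, Ifngr1 moved to the sixth place at 9.002 CPM per kilobase.

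**Figure D1:**
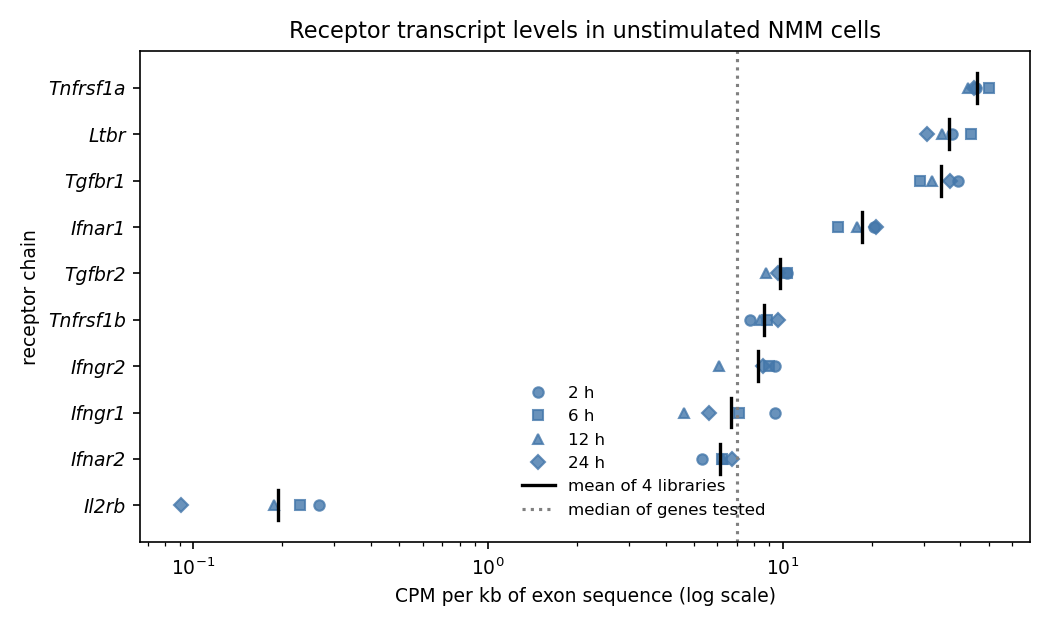
Transcript levels of the 10 receptor chains in the 4 unstimulated libraries, as CPM per kilobase of exon sequence on a log scale. Each symbol is 1 library at 2, 6, 12 or 24 h, the black bar is their mean and the dotted line the median of the genes tested (7.01); the chains run from Tnfrsf1a (45.6) at the top to Il2rb (0.194) at the bottom.

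Stimulation changed 8 of the 10 chains in at least 1 comparison with unstimulated cells. The share of all genes changed in at least 1 was not computed, and 42% were called in the combination alone. Ifngr1, Ifngr2 and Ifnar1 were higher and Tgfbr1 lower under TNF 10 ng/ml. Ifnar2 and Tnfrsf1a were higher under IFNγ 100 ng/ml, and under IFNα1 Tnfrsf1a, Tnfrsf1b and Tgfbr2. Each change was tested as the mean over the 4 durations with edgeR's quasi-likelihood test, with Benjamini-Hochberg adjustment over 12203 genes, and called at an adjusted p under 0.05. All 10 chains passed the filter. Errors of log2 changes given with ± are approximate standard errors. In the combination 7 chains were called, 6 higher and 1 lower, against 42% of all genes tested. Among the IFNγ doses, 0.01 ng/ml gave no call among the chains (0.00% of all genes), 1 ng/ml gave 4 (15%) and 100 ng/ml gave 2 (22.1%). Among the TNF doses, 0.1 ng/ml gave no call (0.0164%), 1 ng/ml gave 2 (2.72%) and 10 ng/ml gave 4 (17.1%). IFNα1 gave 3 calls (9.27%), and TGF-β gave none (8.28%), although it changed 1010 genes. LT (0.00%) and IL-2 (0.00%) gave none either.

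Comparisons with no call among the chains were read beside the other test and the unadjusted p. For IFNγ 0.01 ng/ml, LT and IL-2, edgeR found no chain at an unadjusted p under 0.05 and DESeq2 called none. Of all 12203 genes, 229, 195 and 152 had such a p in these comparisons. For TNF 0.1 ng/ml edgeR found 2 such chains (634 of all genes) and DESeq2 called 1, Ifngr2. For TGF-β edgeR found 4 such chains (2287 of all genes) and DESeq2 called none. All 11 comparisons share the same 4 unstimulated libraries. The median log2 change of all genes lay between -0.03 and 0.00 in these comparisons, while that of the 10 chains was 0.46 in the combination, 0.28 under TNF 10 ng/ml, 0.16 under IFNα1 and -0.05 under IFNγ 100 ng/ml.

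**Figure D2:**
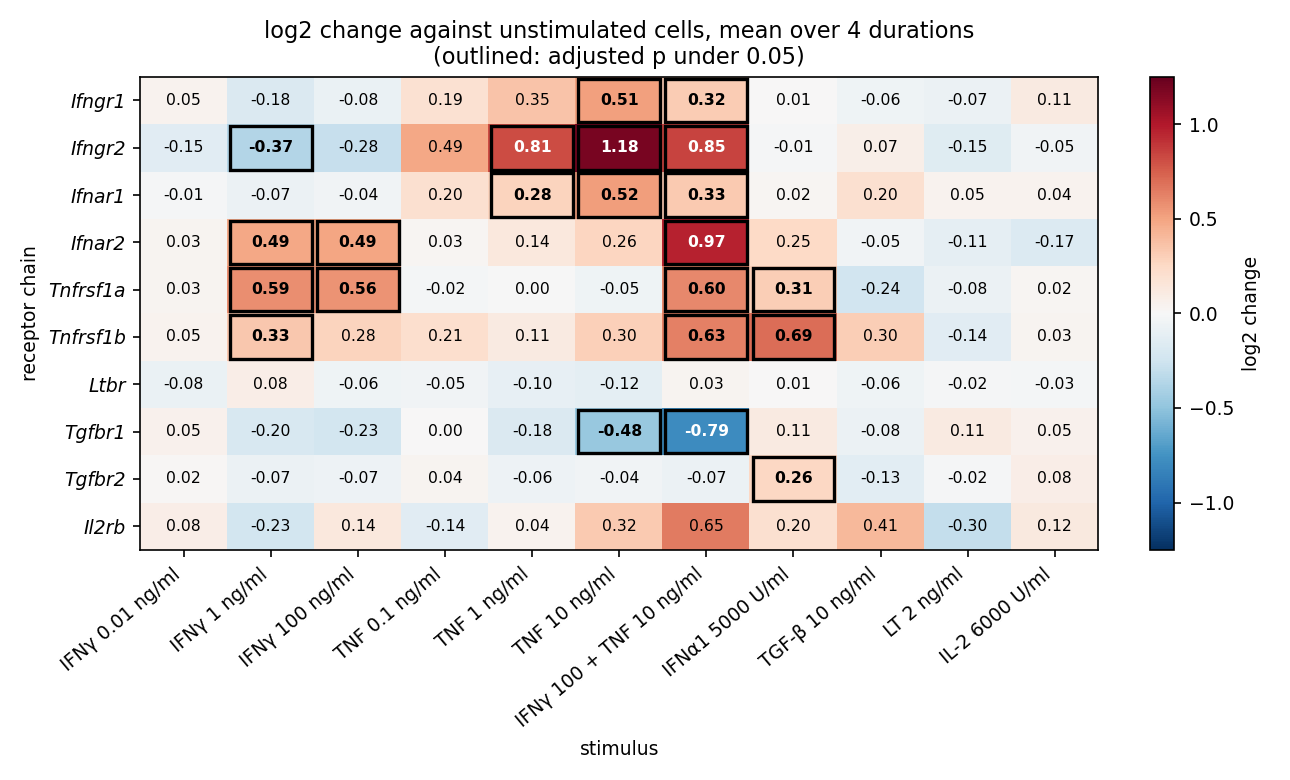
log2 change of each receptor chain (rows) under each stimulus (columns) against unstimulated cells, as the mean over 4 durations; red is higher, blue is lower, and outlined cells had an adjusted p under 0.05. The largest increase was that of Ifngr2 under TNF 10 ng/ml (1.18) and the largest decrease that of Tgfbr1 in the combination (-0.79).

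The IFNγ receptor genes rose under TNF and not under IFNγ. Ifngr2, the signalling chain (chr16:91547072-91565169, plus strand, build GRCm38), had 35.3, 33.8, 22.8 and 32.1 CPM in unstimulated cells at 2, 6, 12 and 24 h. It had 69.9, 40.4, 33.9 and 33.5 CPM under TNF 0.1 ng/ml and 77.2, 58.3, 42.5 and 43.2 CPM under TNF 1 ng/ml. At TNF 10 ng/ml it had 79.0, 79.8, 62.6 and 60.5 CPM at the same durations. All 4 libraries with TNF 10 ng/ml, and all 4 with TNF 1 ng/ml, were above every unstimulated library. At 2 h the 3 doses lay close together, and at 24 h the lowest dose lay close to unstimulated cells. The mean log2 change was 0.49 ± 0.11 at 0.1 ng/ml (edgeR adjusted p = 0.132), 0.81 ± 0.11 at 1 ng/ml (adjusted p = 9.56e-06) and 1.18 ± 0.11 at 10 ng/ml (adjusted p = 5e-10), the last a 2.27-fold increase. The change under TNF 10 ng/ml was 1.20 in the 2 h and 6 h libraries and 1.16 in the 12 h and 24 h libraries, both past the threshold. The direct comparison of 10 with 1 ng/ml gave 0.37 ± 0.11 with an adjusted p of 0.256, and 0.50 with an adjusted p of 0.00296 without the 2 h libraries.

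Under IFNγ 100 ng/ml Ifngr2 had 29.98, 27, 22 and 23.3 CPM, values that overlapped those of unstimulated cells. Its log2 change was -0.28 ± 0.12 (edgeR adjusted p = 0.0870). Under IFNγ 1 ng/ml it had 26.9, 24.3, 23.7 and 21.3 CPM and its change of -0.37 ± 0.12 passed the threshold (adjusted p = 0.0354). That call was lost without the 6 h, 12 h or 24 h libraries, with adjusted p of 0.0529 to 0.225, and without the filter for low counts (adjusted p = 0.0510). Ifngr2 was therefore higher under TNF 10 ng/ml than under IFNγ 100 ng/ml, by 1.47 ± 0.12 (adjusted p = 4.51e-12), the largest difference of any chain in that comparison.

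Ifngr1, the ligand-binding chain (chr10:19591949-19610229, plus strand), had 26.7, 20.2, 13.2 and 15.9 CPM in unstimulated cells at 2, 6, 12 and 24 h. Under TNF 0.1 ng/ml it had 33.5, 20.8, 15.9 and 17 CPM, and under TNF 1 ng/ml 37.1, 28.7, 15.4 and 17.4 CPM. At TNF 10 ng/ml it had 37.4, 29.3, 20.5 and 21.7 CPM. Each TNF 10 ng/ml library was above the unstimulated library of the same duration, although the ranges of the groups overlapped because Ifngr1 was lower at 12 and 24 h than at 2 h in each of them. The mean change was 0.35 ± 0.11 at 1 ng/ml (edgeR adjusted p = 0.0651) and 0.51 ± 0.11 at 10 ng/ml (adjusted p = 0.000748). It came to 0.50 in the 2 h and 6 h libraries alone (adjusted p = 0.0637) and 0.52 in the 12 h and 24 h libraries alone (adjusted p = 0.0123). In the combination Ifngr1 had 36.3, 26.1, 18.6 and 15.4 CPM and a change of 0.32 ± 0.11 (adjusted p = 0.0162). That call was lost without the 2 h, 6 h or 12 h libraries (adjusted p = 0.0670 to 0.0814). Under IFNγ 100 ng/ml its change was -0.08 ± 0.11 (adjusted p = 0.631).

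**Figure D3:**
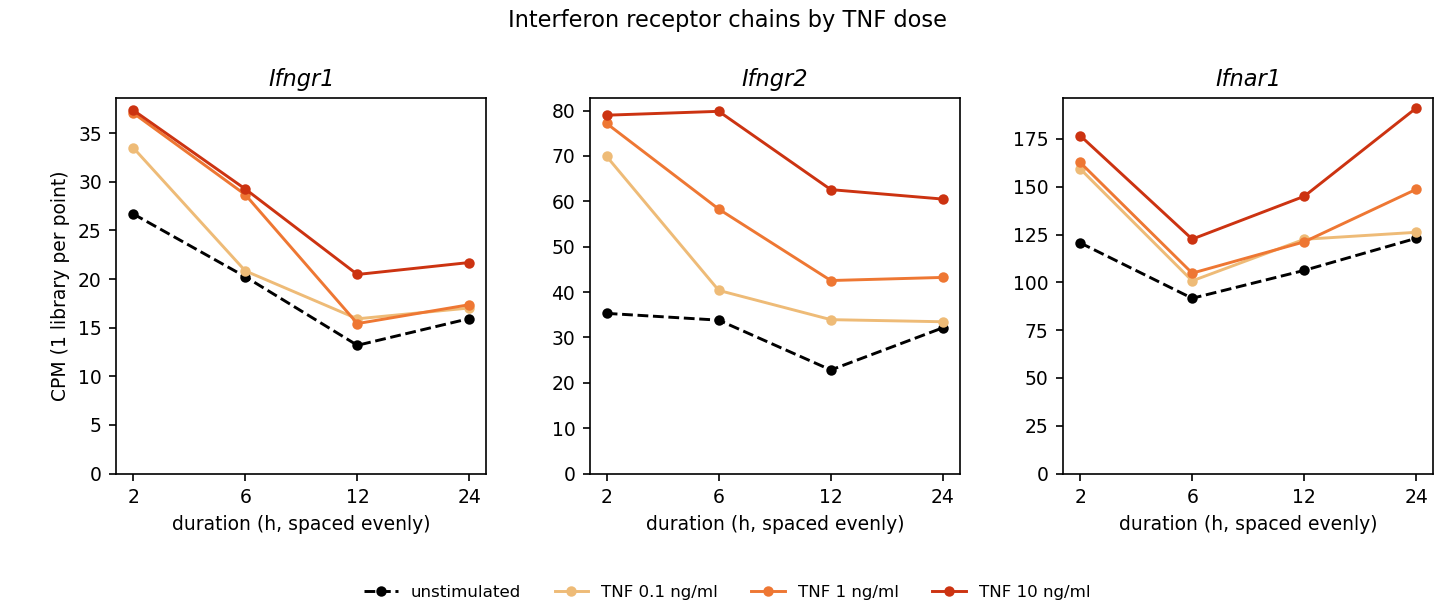
CPM of Ifngr1, Ifngr2 and Ifnar1 at 2, 6, 12 and 24 h in unstimulated cells (dashed) and under TNF at 0.1, 1 and 10 ng/ml; each point is 1 library. Ifngr2 reached 79.0 and 79.8 CPM under TNF 10 ng/ml at 2 and 6 h, and all 3 chains lay above the dashed line at every duration under that dose.

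Of the type I interferon receptor chains, Ifnar1 rose under TNF and in the combination, and Ifnar2 under IFNγ and in the combination. Ifnar1 (chr16:91485238-91507441, plus strand) had 121, 91.7, 106 and 123 CPM in unstimulated cells at 2, 6, 12 and 24 h. It had 159, 101, 123 and 126 CPM under TNF 0.1 ng/ml, 163, 105, 121 and 149 CPM under TNF 1 ng/ml, and 177, 123, 145 and 191 CPM under TNF 10 ng/ml. Each TNF library was above the unstimulated library of its duration, and the ranges of the 10 ng/ml and unstimulated groups overlapped only through the 6 h library. The change was 0.28 ± 0.08 at 1 ng/ml (edgeR adjusted p = 0.0454) and 0.52 ± 0.08 at 10 ng/ml (adjusted p = 8.9e-06). The call at 1 ng/ml was lost when any 1 duration was left out (adjusted p = 0.0662 to 0.232); that at 10 ng/ml held within the 2 h and 6 h libraries (0.49) and within the 12 h and 24 h libraries (0.55). In the combination Ifnar1 had 142, 124, 132 and 152 CPM and a change of 0.33 ± 0.08 (adjusted p = 0.001), which was 0.34 within the 2 h and 6 h libraries (adjusted p = 0.0662) and 0.32 within the 12 h and 24 h libraries (adjusted p = 0.00493). Under IFNα1 Ifnar1 changed by 0.02 ± 0.08 (adjusted p = 0.910) and under IFNγ 100 ng/ml by -0.04 ± 0.08 (adjusted p = 0.742).

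Ifnar2 (chr16:91372783-91405589, plus strand) had 40.6, 41.6, 37.1 and 39.99 CPM in the combination, 30.3, 28.1, 28.7 and 27.9 CPM under IFNγ 100 ng/ml, 25.9, 21.6, 23.7 and 27.2 CPM under TNF 10 ng/ml, and 17.7, 20.7, 20.9 and 22.3 CPM in unstimulated cells at 2, 6, 12 and 24 h. The 4 libraries of the combination were the highest of all 48, above the next group without overlap, and those of IFNγ 100 ng/ml lay above every unstimulated library. The log2 change was 0.97 ± 0.10 in the combination (edgeR adjusted p = 1.29e-10), a 1.95-fold increase, 0.49 ± 0.10 under IFNγ 100 ng/ml (adjusted p = 0.000311) and 0.49 ± 0.10 under IFNγ 1 ng/ml (adjusted p = 0.000515). Under TNF 10 ng/ml it was 0.26 ± 0.10 (adjusted p = 0.0642), and 0.43 with the IL-2 libraries in place of the unstimulated ones (adjusted p = 0.00273). Under its own ligand class, IFNα1, Ifnar2 had 20, 20.7, 27 and 29.7 CPM and a mean change of 0.25 ± 0.10 (adjusted p = 0.111). That change was 0.10 within the 2 h and 6 h libraries (adjusted p = 0.897) and 0.41 within the 12 h and 24 h libraries (adjusted p = 0.0286), and against the IL-2 libraries it was 0.42 (adjusted p = 0.00443). Ifnar2 shares 315 exon bases with Gm21970 on the same strand, so reads of these bases may be split or dropped by the authors' counting.

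The TNF receptor genes rose under interferons. Tnfrsf1a (chr6:125349362-125362484, plus strand), the chain with the death domain, had 196, 205, 161 and 158 CPM in the combination, 209, 177, 149 and 164 CPM under IFNγ 100 ng/ml, and 118, 130, 110 and 115 CPM in unstimulated cells at 2, 6, 12 and 24 h. All 4 libraries of each of these IFNγ groups were above every unstimulated library. The log2 change was 0.60 ± 0.10 in the combination (edgeR adjusted p = 2.42e-06), 0.56 ± 0.10 under IFNγ 100 ng/ml (adjusted p = 3.05e-05) and 0.59 ± 0.10 under IFNγ 1 ng/ml (adjusted p = 2.28e-05). Under IFNγ 100 ng/ml the 2 h and 6 h libraries gave 0.66 and the 12 h and 24 h libraries 0.47, each past the threshold. With its own ligand, TNF at 10 ng/ml, Tnfrsf1a had 98.4, 127, 109 and 121 CPM and a change of -0.05, with a 95% interval from -0.25 to 0.14 (adjusted p = 0.760). It was lower under TNF 10 ng/ml than under IFNγ 100 ng/ml, by -0.62 ± 0.10 (adjusted p = 9.38e-06).

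Tnfrsf1b (chr4:145213463-145246870, minus strand) rose under IFNα1 and in the combination. It had 65.4, 55.2, 47 and 47.3 CPM under IFNα1, against 29.4, 33.7, 31.8 and 36.8 CPM in unstimulated cells at 2, 6, 12 and 24 h. In the combination it had 54.3, 58.1, 46.8 and 45.4 CPM. Both groups lay above every unstimulated library, with the widest gap at 2 and 6 h. The log2 change was 0.69 ± 0.12 under IFNα1 (edgeR adjusted p = 5.83e-05), a 1.62-fold increase, and 0.63 ± 0.12 in the combination (adjusted p = 3.04e-05), and the difference between these groups was not tested. Within the 2 h and 6 h libraries the change under IFNα1 was 0.95, and within the 12 h and 24 h libraries 0.47. Under IFNγ 100 ng/ml it was 0.28 ± 0.12 (adjusted p = 0.0858), and 0.40 without the 24 h libraries (adjusted p = 0.0434). With TNF 10 ng/ml it was 0.30 ± 0.12 (adjusted p = 0.0790), which passed without the 2 h libraries at 0.33 (adjusted p = 0.00831) and with the compared groups alone at 0.30 (adjusted p = 0.0425). The change of 0.33 ± 0.12 under IFNγ 1 ng/ml was called at an adjusted p of 0.0496, and not without the 2 h, 6 h or 12 h libraries (adjusted p = 0.178 to 0.205) or without the filter (adjusted p = 0.106). Tnfrsf1b was higher under IFNα1 than under IFNγ 100 ng/ml by 0.42 ± 0.11 (adjusted p = 0.0101), a call lost without the 6 h or the 12 h libraries (adjusted p = 0.0653 and 0.0788). Tnfrsf1a, by contrast, changed by 0.31 ± 0.10 under IFNα1 (adjusted p = 0.0342), a call lost without the 6 h, 12 h or 24 h libraries (adjusted p = 0.122 to 0.237).

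**Figure D4:**
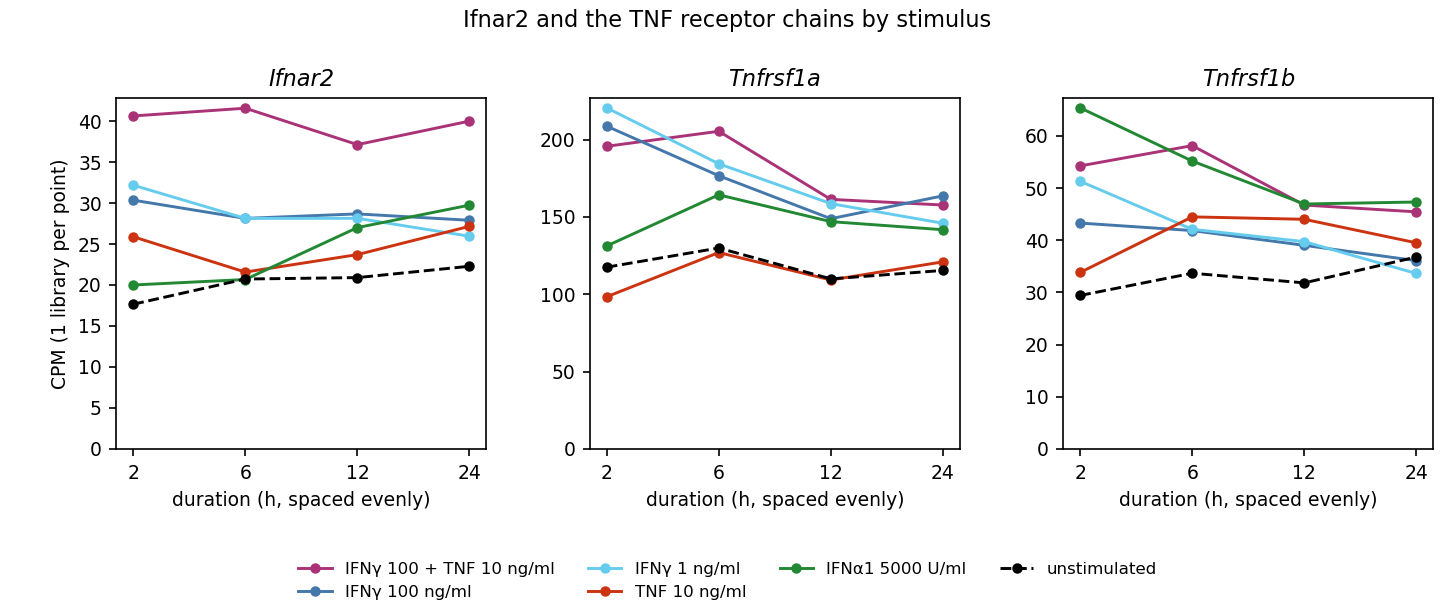
CPM of Ifnar2, Tnfrsf1a and Tnfrsf1b at 2, 6, 12 and 24 h under the combination, IFNγ at 100 and 1 ng/ml, TNF 10 ng/ml and IFNα1, and in unstimulated cells (dashed); each point is 1 library. Ifnar2 is highest in the combination at every duration (37.1 to 41.6 CPM), Tnfrsf1a is raised in the 3 groups with IFNγ and Tnfrsf1b is highest under IFNα1 at 2 h (65.4 CPM).

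The sequences around the RefSeq starts of these chains are shown because TNF 10 ng/ml and IFNγ 100 ng/ml gave calls of different chains, and NF-κB and STAT factors are the known routes of these cytokines to DNA. RefSeq (build GRCm38.p6) gave a window from 250 bases before to 50 bases after a gene start for 9 of the 10 chains, 10 windows in all, since Tgfbr1 has a pair. They were searched on both strands for the interferon gamma-activated site TTCNNNGAA (GAS), which reads alike on both strands, for the interferon-stimulated response element GAAANNGAAA (ISRE), and for the NF-κB consensus. Of 32851 windows of all genes, 8.298% held the GAS letters, 3.443% the ISRE letters and 8.459% the NF-κB consensus. The window of Tnfrsf1a lies inside the gene span given above, after the start given there, because RefSeq places the start further downstream. The 5 windows that held a match are given on each gene's own strand, with the matches in capitals.
Ifngr2 (chr16:91546809-91547108): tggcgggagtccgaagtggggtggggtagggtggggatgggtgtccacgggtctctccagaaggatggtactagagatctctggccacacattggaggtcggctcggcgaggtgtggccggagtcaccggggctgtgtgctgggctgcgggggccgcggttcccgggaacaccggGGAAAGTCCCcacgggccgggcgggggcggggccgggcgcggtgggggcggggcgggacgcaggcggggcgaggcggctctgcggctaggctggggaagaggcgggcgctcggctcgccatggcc
Ifnar1 (chr16:91484965-91485264): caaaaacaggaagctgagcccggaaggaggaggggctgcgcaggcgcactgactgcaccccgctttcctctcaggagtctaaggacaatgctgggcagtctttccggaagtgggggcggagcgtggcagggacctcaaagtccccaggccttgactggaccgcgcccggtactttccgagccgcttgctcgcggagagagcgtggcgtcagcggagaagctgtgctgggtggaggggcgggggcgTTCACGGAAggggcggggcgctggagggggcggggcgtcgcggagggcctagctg
Ifnar2 (chr16:91372533-91372832): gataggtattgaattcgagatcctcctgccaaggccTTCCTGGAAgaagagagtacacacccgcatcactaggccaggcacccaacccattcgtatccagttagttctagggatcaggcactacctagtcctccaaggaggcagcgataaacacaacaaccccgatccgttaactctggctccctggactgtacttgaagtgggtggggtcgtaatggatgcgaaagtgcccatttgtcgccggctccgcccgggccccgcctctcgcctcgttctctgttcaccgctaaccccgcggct
Tnfrsf1a (chr6:125349473-125349772): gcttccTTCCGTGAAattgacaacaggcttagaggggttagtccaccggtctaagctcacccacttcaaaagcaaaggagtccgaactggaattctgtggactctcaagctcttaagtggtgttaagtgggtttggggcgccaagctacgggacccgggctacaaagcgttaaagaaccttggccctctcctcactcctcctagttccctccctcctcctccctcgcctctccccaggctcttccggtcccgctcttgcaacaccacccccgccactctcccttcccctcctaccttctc
Tnfrsf1b (chr4:145246821-145247120): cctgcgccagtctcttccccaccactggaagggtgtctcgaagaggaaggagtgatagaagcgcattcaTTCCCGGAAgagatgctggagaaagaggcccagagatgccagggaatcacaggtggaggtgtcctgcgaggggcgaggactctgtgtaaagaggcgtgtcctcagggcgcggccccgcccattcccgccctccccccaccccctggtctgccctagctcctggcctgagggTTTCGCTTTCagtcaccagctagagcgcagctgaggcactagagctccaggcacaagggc
The capitals mark an NF-κB match on the minus strand in Ifngr2 and a GAS match in each of Ifnar1, Ifnar2, Tnfrsf1a and Tnfrsf1b. The second match in Tnfrsf1b is an ISRE on the minus strand, 10 bases before the RefSeq start, and no matches overlapped. Of the 4 windows with a GAS match, those of Ifnar2 and Tnfrsf1a belong to chains called higher under IFNγ 100 ng/ml, and those of Ifnar1 (-0.04) and Tnfrsf1b (0.28) to chains that did not pass the test. Of the 3 chains called higher under TNF 10 ng/ml, the windows of Ifngr1 and Ifnar1 held no NF-κB match. A match describes the letters of the window only.

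Of the TGF-β receptor chains, Tgfbr1 fell under TNF 10 ng/ml and in the combination, while Tgfbr2 rose under IFNα1. Tgfbr1 (chr4:47353222-47414931, plus strand), the chain that phosphorylates SMAD2 and SMAD3, had 192, 105, 114 and 117 CPM in the combination, 217, 145, 141 and 146 CPM under TNF 10 ng/ml, and 257, 190, 209 and 241 CPM in unstimulated cells at 2, 6, 12 and 24 h. From 6 h on, every library of both stimulated groups lay below every unstimulated library. The log2 change was -0.79 ± 0.10 in the combination (edgeR adjusted p = 4.32e-08), to 0.58 of the unstimulated level, and -0.48 ± 0.10 under TNF 10 ng/ml (adjusted p = 0.00078). In the combination the 2 h and 6 h libraries gave -0.61 and the 12 h and 24 h libraries -0.96, each past the threshold. Under TNF 10 ng/ml the 2 h and 6 h libraries gave -0.32 (adjusted p = 0.156) and the 12 h and 24 h libraries -0.65 (adjusted p = 7.4e-07). At TNF 1 ng/ml the change of Tgfbr1 was -0.18 ± 0.10 (adjusted p = 0.361), which passed with the compared groups alone (adjusted p = 0.0286). At TNF 0.1 ng/ml it was 0.0003 ± 0.10 and not called. Under IFNγ 100 ng/ml Tgfbr1 had 232, 186, 176 and 172 CPM and a change of -0.23 ± 0.10 (adjusted p = 0.0949), which passed without the 2 h libraries at -0.25 (adjusted p = 0.0406) and within the 12 h and 24 h libraries at -0.37 (adjusted p = 0.00057). The summed level of 8 fibroblast markers, 5 of them past the filter, was 75.7 to 363 CPM in the combination. It was 212 to 346 CPM under TNF 10 ng/ml and 341 to 513 CPM in unstimulated cells. Over all 48 libraries most of the counts were those of Col3a1 (110134), followed by Dcn (7483), Pdgfrb (5560) and Pdgfra (2906). Col1a2 held 339 counts, Col1a1 161, Lum 8 and Thy1 5. The part of this sum in the result was not tested.

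Under TGF-β itself Tgfbr1 had 283, 195, 197 and 180 CPM, and the change of -0.08 ± 0.10 over all durations was not called (edgeR adjusted p = 0.772). Within the 12 h and 24 h libraries it was -0.26 (adjusted p = 0.0290) and within the 2 h and 6 h libraries 0.08 (adjusted p = 0.885). Tgfbr2 (chr9:116084293-116175360, minus strand), the ligand-binding chain, had 86.2, 69.3, 68.4 and 68.2 CPM under TGF-β, against 84.8, 84.3, 71.7 and 78.5 CPM in unstimulated cells. Its change was -0.13 ± 0.06 (adjusted p = 0.206), and -0.21 with the IL-2 libraries in place of the unstimulated ones (adjusted p = 0.0146). Under IFNα1 Tgfbr2 had 100, 96.0, 89.3 and 95.9 CPM, all above every unstimulated library. That change was 0.26 ± 0.06 (adjusted p = 0.00194), a 1.19-fold increase, and Tgfbr2 was also higher under IFNα1 than under IFNγ 100 ng/ml, by 0.32 ± 0.06 (adjusted p = 0.000144). Within the 2 h and 6 h libraries the change against unstimulated cells was 0.23 (adjusted p = 0.221), and within the 12 h and 24 h libraries 0.32 (adjusted p = 0.0120). The fibroblast markers summed to 423 to 634 CPM under IFNα1, and their part in the result was not tested. Under the other 9 stimuli the log2 change of Tgfbr2 lay between -0.07 and 0.08.

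**Figure D5:**
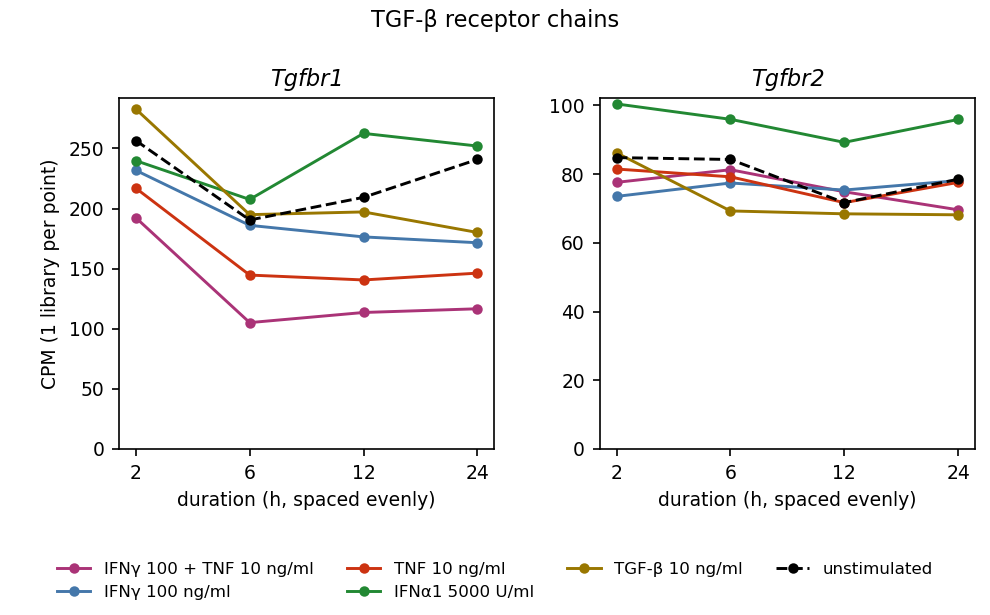
CPM of Tgfbr1 and Tgfbr2 at 2, 6, 12 and 24 h under the combination, IFNγ 100 ng/ml, TNF 10 ng/ml, IFNα1 and TGF-β, and in unstimulated cells (dashed); each point is 1 library. Tgfbr1 is lowest in the combination at every duration (105 to 192 CPM), and Tgfbr2 is highest under IFNα1 at every duration (89.3 to 100 CPM).

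Ltbr and Il2rb were called in no comparison with unstimulated cells. Ltbr (chr6:125306571-125313885, minus strand) ranged from 70.7 to 108 CPM over all 48 libraries. Under LT it had 96.7, 96.4, 73.6 and 74.0 CPM, against 88.4, 102, 81.7 and 72.3 CPM in unstimulated cells, a change of -0.02 with a 95% interval from -0.15 to 0.12 (edgeR adjusted p = 1). Across the 11 stimuli its change lay between -0.12, under TNF 10 ng/ml, and 0.08, under IFNγ 1 ng/ml. Il2rb (chr15:78480553-78495066, minus strand) had 330 counts in all 48 libraries, 2 to 16 in each. Under IL-2 its 4 libraries held 25 counts, 0.910 CPM with an exact 95% Poisson interval of 0.589 to 1.34, and the unstimulated libraries held 24 counts, 0.827 CPM with an interval of 0.530 to 1.23. The change under IL-2 was 0.12 with a 95% interval from -0.79 to 1.03 (adjusted p = 1), so these counts do not tell apart changes within that interval. In the combination Il2rb held 41 counts, 1.32 CPM with an interval of 0.949 to 1.79, and a change of 0.65 ± 0.41 that was not called (adjusted p = 0.204). Of the other IL-2 receptor chains, Il2ra had 0 counts in all 48 libraries, which over the 4 unstimulated libraries allows up to 0.103 CPM at a floor of 3 counts. Il2rg held 46 counts in the combination, 40 under TNF 10 ng/ml and 5 in unstimulated cells. Its log2 change was 2.92 ± 0.65 in the combination (adjusted p = 0.000337) and 2.84 ± 0.66 under TNF 10 ng/ml (adjusted p = 0.00217). In the combination 1 library held 23 of the 46 counts, and under TNF 10 ng/ml 1 held 26 of the 40. In all other groups a library held at most 5 counts of Il2rg. It therefore passed the filter for low counts only through the groups where it was high, and these tests are not independent of the filter. The Poisson intervals and the floor cover counting error only, while the intervals of log2 changes come from the edgeR model.

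The combination was compared with each cytokine alone to ask which part each added. Against IFNγ 100 ng/ml alone, 6 chains were called, 5 higher and 1 lower, against 13.9% of all genes. Ifngr2 was higher by 1.13 ± 0.12 (edgeR adjusted p = 1.47e-09), Ifnar2 by 0.47 ± 0.09 (adjusted p = 0.000386), Ifngr1 by 0.40 ± 0.11 (adjusted p = 0.00981), Ifnar1 by 0.37 ± 0.08 (adjusted p = 0.0011) and Tnfrsf1b by 0.35 ± 0.11 (adjusted p = 0.0337), while Tgfbr1 was lower, at -0.56 ± 0.10 (adjusted p = 0.000105). Tnfrsf1a differed by 0.04 ± 0.09 (adjusted p = 0.830). The calls of Ifngr1 (without the 2 h or 6 h libraries) and of Tnfrsf1b (without the 6 h, 12 h or 24 h libraries) were lost when a duration was left out, with adjusted p of 0.0549 to 0.249.

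Against TNF 10 ng/ml alone, 5 chains were called, 3 higher and 2 lower, against 14% of all genes. Ifnar2 was higher in the combination by 0.70 ± 0.09 (edgeR adjusted p = 5.47e-07), Tnfrsf1a by 0.66 ± 0.10 (adjusted p = 2.55e-06) and Tnfrsf1b by 0.33 ± 0.11 (adjusted p = 0.0443). Ifngr2 was lower by -0.34 ± 0.11 (adjusted p = 0.0291) and Tgfbr1 by -0.31 ± 0.10 (adjusted p = 0.0320). Only the calls of Ifnar2 and Tnfrsf1a held when any 1 duration was left out; without the 6 h or the 12 h libraries those were the only 2 calls. Without the 6 h libraries the adjusted p was 0.245 for Tgfbr1 and 0.222 for Ifngr2.

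No chain was called for a departure from additivity of IFNγ and TNF on the log2 scale, against 0.0819% of all genes. edgeR found 1 chain at an unadjusted p under 0.05, Ltbr (1476 of all 12203 genes), and DESeq2 called none. The departure was 0.21 with a 95% interval from 0.02 to 0.40 for Ltbr (edgeR adjusted p = 0.366), 0.21 from -0.07 to 0.48 for Ifnar2 (adjusted p = 0.564) and -0.05 from -0.38 to 0.28 for Ifngr2 (adjusted p = 0.931). Between IFNγ 100 and 1 ng/ml no chain was called and 0.00% of all genes were. There 1 chain had an unadjusted edgeR p under 0.05 (303 of all genes), with no call by DESeq2. Between TNF 10 and 1 ng/ml no chain was called either, against 0.238% of all genes, and DESeq2 called none. At an unadjusted edgeR p under 0.05 were 3 chains, Ifngr2, Ifnar1 and Tgfbr1 (897 of all genes). Those 3 chains were called without the 2 h libraries, at 0.50, 0.29 and -0.38. Comparing TNF 10 ng/ml with IFNγ 100 ng/ml directly, 4 chains were called, against 10.4% of all genes: Ifngr2, Ifngr1 (0.60 ± 0.11, adjusted p = 0.000116) and Ifnar1 (0.56 ± 0.08, adjusted p = 1.75e-06) higher under TNF and Tnfrsf1a lower. Comparing IFNα1 with IFNγ 100 ng/ml, 3 chains were called, all higher under IFNα1, against 16.1% of all genes: Tnfrsf1b, Tgfbr2 and Tgfbr1 (0.34 ± 0.10, adjusted p = 0.0164), the last not without the 12 h or 24 h libraries (adjusted p = 0.274 and 0.130).

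The effects on 2 of the chains changed with the duration of stimulation. Slopes are changes of the log2 effect per doubling of the hours. The decrease of Tgfbr1 in the combination grew by -0.17 ± 0.05 per doubling (edgeR adjusted p = 0.00903), where 17.4% of all genes had a called slope; the log2 ratio was -0.42 at 2 h, -0.86 at 6 h, -0.88 at 12 h and -1.04 at 24 h. For Tnfrsf1b the slope was -0.24 ± 0.06 per doubling under IFNγ 1 ng/ml (adjusted p = 0.0161, 5.05% of all genes). Under TGF-β it was -0.27 ± 0.06 (adjusted p = 0.0135, 1.49% of all genes), where the mean change was not called (0.30 ± 0.12, adjusted p = 0.116). Under IFNγ 1 ng/ml the log2 ratio of Tnfrsf1b was 0.80 at 2 h, 0.32 at 6 h, 0.32 at 12 h and -0.13 at 24 h. For Tnfrsf1b under TGF-β the log2 ratio was 0.83 at 2 h, 0.30 at 6 h, 0.19 at 12 h and -0.15 at 24 h. Each of these 3 calls was lost without the 2 h libraries and without the 24 h libraries (adjusted p = 0.114 to 0.751). For Tnfrsf1b under IFNα1 the slope was -0.22 ± 0.06 (adjusted p = 0.0581), which DESeq2 called.

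No slope was called for the chains under the other stimuli: IFNγ 0.01 ng/ml (0.00% of all genes), IFNγ 100 ng/ml (6.90%), TNF 0.1 ng/ml (0.0574%), TNF 1 ng/ml (0.0574%), TNF 10 ng/ml (2.43%), IFNα1 (0.828%), LT (0.00%) and IL-2 (0.00%). The numbers of chains with an unadjusted edgeR p under 0.05 follow, with the number of all 12203 genes in brackets. They were 2 under IFNγ 100 ng/ml (2608), 2 under TNF 1 ng/ml (715) and 2 under TNF 0.1 ng/ml (953). There was 1 under TNF 10 ng/ml (1677), 1 under IFNα1 (1611), and none under IFNγ 0.01 ng/ml (252), LT (362) or IL-2 (332). DESeq2 called no slope under these stimuli apart from that of Tnfrsf1b under IFNα1. For Ifngr2 the slope was -0.23 ± 0.06 under TNF 0.1 ng/ml (adjusted p = 0.266), -0.17 ± 0.06 under TNF 1 ng/ml (adjusted p = 0.529) and -0.04 ± 0.06 under TNF 10 ng/ml (adjusted p = 0.842). Without any cytokine, Ifngr1 fell with the hours in culture by -0.24 ± 0.07 per doubling (adjusted p = 0.0385; 2.96% of all genes), a call lost without the 2 h, 12 h or 24 h libraries (adjusted p = 0.0969 to 0.547) and without the filter (adjusted p = 0.0933).

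The genes downstream of each receptor were read from lists of pathway members, as counts of called genes, with the share of all tested genes called in the same comparison in brackets. Of 10 tested genes of IFNγ receptor signalling, 7 rose under IFNγ 100 ng/ml (22.1% of all genes called) and none fell, with a list median of 0.60. Among them were the kinases Jak1 (0.18) and Jak2 (1.04), the transcription factor Irf1 (3.89), and the inhibitors Socs1 (1.66), Socs3 (2.09) and Ptpn2 (0.46). In the other comparisons 8 rose and 1 fell in the combination (42%), 7 rose under IFNγ 1 ng/ml (15%), 2 under TNF 1 ng/ml (2.72%), 6 under TNF 10 ng/ml (17.1%) and 4 under IFNα1 (9.27%). Of 8 tested genes of type I interferon receptor signalling, 5 rose under IFNα1 (9.27%), with a list median of 0.75. Among them were Stat2 (1.02) and Irf9 (0.39), parts of the complex that binds the ISRE, Usp18 (1.29), an inhibitor that binds IFNAR2, and Isg15 (0.90), a ubiquitin-like protein. In this list 8 rose in the combination (42%), 7 under IFNγ 1 ng/ml (15%), 7 under IFNγ 100 ng/ml (22.1%), 1 under TNF 1 ng/ml (2.72%) and 6 under TNF 10 ng/ml (17.1%).

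Of 23 tested genes of TNF receptor signalling, 10 rose and 1 fell under TNF 10 ng/ml (17.1% of all genes called), with a list median of 0.21. Nfkbia (2.68), Birc3 (2.43) and Tnfaip3 (2.12), which encode NF-κB feedback and survival proteins, rose most, followed by Traf2 (0.63), Casp8 (0.50), Birc2 (0.44), Traf5 (0.40), Adam17 (0.31), Cflar (0.30) and Ripk1 (0.24). Adam17 encodes the protease that sheds TNF receptors from the surface, and Sharpin (-0.26), a part of the linear ubiquitin ligase, fell. In the other comparisons 15 rose and 1 fell in the combination (42%), 6 rose under IFNγ 1 ng/ml (15%), 8 under IFNγ 100 ng/ml (22.1%), 4 under TNF 1 ng/ml (2.72%) and 5 under IFNα1 (9.27%). Of 8 tested genes of lymphotoxin β receptor signalling none was called under LT, with a list median of -0.01, no call for any gene of the table and 195 genes at an unadjusted edgeR p under 0.05. In this list 6 rose in the combination (42%), 1 under IFNγ 1 ng/ml (15%), 1 under IFNγ 100 ng/ml (22.1%), 4 under TNF 1 ng/ml (2.72%) and 6 under TNF 10 ng/ml (17.1%), with Relb (1.91) and Nfkb2 (1.6), which make the alternative NF-κB dimer, among the last.

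Of 14 tested genes of TGF-β receptor signalling, 6 rose and 1 fell under TGF-β (8.28% of all genes called), with a list median of 0.12. Pmepa1 (1.5), Smad7 (1.32), Skil (0.84), Ski (0.52), Smurf2 (0.29) and Smurf1 (0.22) rose, all of which encode feedback inhibitors of the pathway, and Tgfbr3 (-0.66), the co-receptor betaglycan, fell. In the combination 4 rose and 2 fell (42%), under IFNγ 1 ng/ml 3 rose and 1 fell (15%), under IFNγ 100 ng/ml 3 rose and 2 fell (22.1%), under TNF 1 ng/ml 1 rose (2.72%), under TNF 10 ng/ml 3 rose and 2 fell (17.1%), and under IFNα1 1 rose and 1 fell (9.27%). Of 7 tested genes of IL-2 receptor signalling none was called under IL-2, where no gene of the table was called and 152 had an unadjusted edgeR p under 0.05; 5 rose in the combination (42%), 2 under IFNγ 1 ng/ml (15%), 2 under IFNγ 100 ng/ml (22.1%), 1 under TNF 1 ng/ml (2.72%), 3 under TNF 10 ng/ml (17.1%) and 1 under IFNα1 (9.27%). No gene of any of these lists was called under IFNγ 0.01 ng/ml, TNF 0.1 ng/ml or LT, and under TGF-β and IL-2 the calls were those already given.

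Among receptor chains for other cytokines, 14 of 20 passed the filter. Of these 10 rose and 1 fell in the combination (42% of all genes called), 3 rose and 2 fell under IFNγ 1 ng/ml (15%), 4 rose and 2 fell under IFNγ 100 ng/ml (22.1%), 4 rose under TNF 1 ng/ml (2.72%), 5 rose and 1 fell under TNF 10 ng/ml (17.1%), 3 rose under IFNα1 (9.27%) and 1 rose under TGF-β (8.28%). Il15ra, the binding chain for IL-15, rose by 5.49 ± 0.37 and Osmr, the oncostatin M receptor, by 2.54 ± 0.23 in the combination. In the unstimulated libraries Il15ra held only 21 counts and Osmr 56. Of 10 tested chains of the TNF receptor family, 7 rose in the combination (42%), 3 under IFNγ 1 ng/ml (15%), 2 under TNF 1 ng/ml (2.72%), 2 under TNF 10 ng/ml (17.1%) and 1 under IFNα1 (9.27%), while 3 rose and 1 fell under IFNγ 100 ng/ml (22.1%) and 1 rose and 2 fell under TGF-β (8.28%). Fas, a death receptor, rose by 4.33 ± 0.35 in the combination and by 2.45 ± 0.40 under TNF 10 ng/ml, from only 24 counts in the unstimulated libraries. Of 8 tested chains of the TGF-β receptor family, 2 rose and 2 fell in the combination (42%), 1 rose and 1 fell in each of IFNγ 1 ng/ml (15%), IFNγ 100 ng/ml (22.1%) and TNF 10 ng/ml (17.1%), 1 rose under IFNα1 (9.27%), and 2 rose and 1 fell under TGF-β (8.28%). The chains called under TGF-β were Acvr1 (0.56) and Bmpr2 (0.51), receptors for bone morphogenetic proteins, and Tgfbr3.

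Of 11 ligands of these receptors 5 passed the filter, Ifnb1, Il15, Tgfb1, Tgfb2 and Tgfb3; Ifng, Tnf, Lta, Ltb, Tnfsf14 and Il2 had at most 2 counts in any library. Ifnb1 rose by 4.02 ± 0.47 and Il15 by 4.37 ± 0.44 in the combination, and IL-15 also signals through IL2RB. In the unstimulated libraries Ifnb1 held only 17 counts and Il15 21. Of the 5, 2 rose and 1 fell in the combination (42% of all genes called), 2 rose and 2 fell under IFNγ 1 ng/ml (15%), 2 rose and 1 fell under IFNγ 100 ng/ml (22.1%), 1 rose under TNF 1 ng/ml (2.72%), 2 rose and 1 fell under TNF 10 ng/ml (17.1%) and 2 rose under IFNα1 (9.27%), with none called under TGF-β, LT, IL-2 or the lowest doses of IFNγ and TNF.

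Across the 48 libraries, the genes with the pattern most like each chain were taken by Pearson's r of log2 CPM, as a description over libraries that share stimuli and durations. For Ifngr2 these were Clec4e (0.910), Nfkbie (0.903) and Ccl9 (0.874), for Ifngr1 Ptp4a2 (0.898), Samd4 (0.870) and Il6st (0.869), and for Ifnar1 Sh3pxd2b (0.869), Fndc3b (0.857) and Map4k4 (0.832). For Ifnar2 they were Fbxl5 (0.908), Ptpn13 (0.900) and Katna1 (0.872), for Tnfrsf1a Stat3 (0.898), Gm4841 (0.887) and Lmo4 (0.880), and for Tnfrsf1b Ikzf5 (0.730), Rnf139 (0.716) and Med7 (0.715). For Tgfbr1 they were Dlg5 (0.941), Tfdp2 (0.924) and Pde3b (0.922), for Tgfbr2 Map4k3 (0.691), Nucb1 (0.661) and Cdh9 (0.659), and for Ltbr Elovl1 (0.846), Phc2 (0.83) and Cnn2 (0.826). For Il2rb, with 2 to 16 counts a library, they reached only 0.547 (Csnk2b), 0.464 (Vdac3) and 0.453 (Nova1). Among the chains themselves the highest values were those of Ifnar2 with Tnfrsf1a (0.718), Ifngr1 with Ifngr2 (0.714) and Ifngr2 with Ifnar1 (0.667).

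Several of the chains are neighbours in the genome, and neighbours were not always called together. On chromosome 16 the genes run in the order Ifnar2, Il10rb, Ifnar1, Ifngr2 and Tmem50b. Under TNF 10 ng/ml Ifnar1 and Ifngr2 rose, while Il10rb, the shared chain of the IL-10 receptor, changed by 0.07 (edgeR adjusted p = 0.710) and Tmem50b by -0.02 (adjusted p = 0.947). Under IFNγ 100 ng/ml Ifnar2 rose and Il10rb fell by -0.33 (adjusted p = 0.0186). On chromosome 6 Ltbr and Tnfrsf1a lie 35476 bases apart on opposite strands, with Scnn1a between them, and under IFNγ 100 ng/ml Tnfrsf1a changed by 0.56 and Ltbr by -0.06. The gene Tnfaip3, which rose by 2.12 under TNF 10 ng/ml, lies 576291 bases from Ifngr1. On chromosome 4 the nearest genes on both sides of Tgfbr1 were also lower in the combination, Col15a1, a collagen gene, by -1.18 (adjusted p = 0.00416) and Alg2, a glycosylation enzyme, by -0.43 (adjusted p = 2.97e-05). Under TNF 10 ng/ml, where Tgfbr1 fell, neither was called (Col15a1 -0.66, adjusted p = 0.165, and Alg2 -0.05, adjusted p = 0.710). Galnt12, beyond Col15a1, was called lower in the combination (-0.95, adjusted p = 6.73e-05) and under TNF 10 ng/ml (-0.52, adjusted p = 0.0371). Sec61b, beyond Alg2, was called in neither. Under IFNγ 100 ng/ml, where Tgfbr1 was not called, Alg2 (-0.29, adjusted p = 0.00709), Col15a1 (-0.98, adjusted p = 0.0277) and Sec61b (-0.45, adjusted p = 0.0108) were lower. Galnt12 was not called there (-0.32, adjusted p = 0.190). Of 19 tested neighbours that are not chains, 3 rose and 5 fell in the combination (42% of all genes called). Under TNF 10 ng/ml 2 rose and 1 fell (17.1%). IFNγ 100 ng/ml gave 1 higher and 7 lower (22.1%), and IFNα1 gave 1 higher and 0 lower (9.27%).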

How the data were processed

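Poly(A) RNA from 48 NMM samples was sequenced as stranded libraries. The authors deposited raw read counts per gene for 49671 genes, with no normalisation. Reads were aligned with HISAT to GRCm38, per the submitters' processing notes. No version of HISAT, and neither counting tool, annotation release nor strand setting, is given in the sources used here, so reads of overlapping genes on opposite strands may not be told apart. TNF 0.1 and IFNγ 0.01 ng/ml were taken from the sample titles.

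The main tool was edgeR 4.0.16 (with limma 3.58.1, in R 4.3.3), and DESeq2 1.42.0 was an alternative. The filter of edgeR (minimum count 10, minimum total 15) left 12203 genes, scaled with TMM. A robust quasi-likelihood model with 1 term per stimulus and 1 per duration had 33 residual degrees of freedom. A model with a slope on log2 hours per stimulus had 22, and a model of stimulus means and slopes in culture 24. Tests are two-sided with Benjamini-Hochberg adjustment over all tested genes, called under 0.05. Approximate standard errors come from each test, as the size of the log2 change over the root of its F statistic. Libraries held 5612907 to 9663207 counts, and no 2 were identical. The model was tested on simulated counts, with 100 changed genes per size. For TNF 10 ng/ml against unstimulated cells it called 60.6% of log2 changes of 0.5 and 79.8% of changes of 1, with 8 false calls. For slopes under TNF 10 ng/ml it called 73% and 86.6%, with 5 false calls. A change of these sizes can thus go uncalled.

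The 10 chains and the pathway lists were chosen with earlier results of these data known. The rule for named genes took all members, the called members of the list that matches each cytokine, the 3 genes with the highest correlation with each chain and the 2 nearest coding neighbours on each side. Of the called list members, 1 is not reported here. Which neighbours are printed, and the other list genes named, were chosen after their values were seen. The comparisons of TNF 10 and of IFNα1 with IFNγ 100 ng/ml were also added after values were seen. Alternatives were DESeq2, its size factors, no filter, no duration term, each duration left out, each index set alone, the compared groups alone, IL-2 libraries as reference, and other length or scaling choices for levels. Exon lengths, gene positions and neighbours came from the GENCODE annotation of GRCm38.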

Additional observations from a re-analysis of the deposited data

Results flagged for a closer look

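In 120 sets of 4 libraries (10 chains in 12 groups), 10 had a library that stood far from the other 3, where chance gives about 1 in 20. The 4 libraries of a set are durations, so such a library is also a time point. Tgfbr1 was high at 2 h in the combination (192 CPM, others 105 to 117), under TNF 10 ng/ml (217 CPM, others 141 to 146) and under TGF-β (283 CPM, others 180 to 197), and Tgfbr2 was high at 2 h under TGF-β (86.2 CPM, others 68.2 to 69.3). Ifngr2 was high at 2 h under IL-2 (38.2 CPM, others 26.4 to 28.2). Tnfrsf1a was high at 6 h under LT (127.8 CPM, others 106 to 108) and Tnfrsf1b at 6 h under IL-2 (39.8 CPM, others 31.2 to 32.6). Low libraries were those of Ifnar2 at 6 h under TGF-β (16.8 CPM, others 20.7 to 20.8), Tnfrsf1b at 2 h under TNF 0.1 ng/ml (33.6 CPM, others 39 to 40.1) and Ltbr at 24 h under TNF 10 ng/ml (74.7 CPM, others 79.9 to 80.5).

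The effect differed with duration, by edgeR's test of the slope per doubling of the hours, for Tgfbr1 in the combination (-0.17), for Tnfrsf1b under IFNγ 1 ng/ml (-0.24) and for Tnfrsf1b under TGF-β (-0.27).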

How the results depend on the processing

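No called effect of a chain changed sign under any alternative. DESeq2 and DESeq2 size factors in edgeR each kept all 44 called effects. Without the filter 36 of 44 were kept, with the compared groups alone 35 of 40, with IL-2 libraries as reference 17 of 22, and without a duration term 21 of 40. The 2 h and 6 h libraries alone kept 23 of 40 and the 12 h and 24 h libraries alone 31 of 40. Leaving out the 2 h, 6 h, 12 h or 24 h libraries kept 35, 33, 32 and 33 of 44. The numbers that groups share are durations, and the model holds duration as a block, so the fit without a duration term is the one without pairing. Beyond that block no paired analysis was possible because each group has 1 library per duration. The following counts of called chains moved by more than 1.5 times. Under IFNγ 1 ng/ml 2 chains were called without the filter, without a duration term, within each index set, with the compared groups alone or with IL-2 as reference. Under TNF 10 ng/ml 2 were called without a duration term or within the 2 h and 6 h libraries. Under TNF 1 ng/ml 1 was called without a duration term, within each index set or with IL-2 as reference, and 4 with the compared groups alone. Under TNF 0.1 ng/ml DESeq2 called 1. Under IFNα1 1 was called without a duration term or within the 2 h and 6 h libraries. Under TGF-β 1 was called within the 12 h and 24 h libraries, with the compared groups alone or with IL-2 as reference. Against IFNγ 100 ng/ml, the combination had 2 without a duration term and 3 within the 2 h and 6 h libraries. Against TNF 10 ng/ml it had 2 without the filter or without a duration term and 3 within each index set. Between TNF 10 and 1 ng/ml 2 were called within the 12 h and 24 h libraries. Between IFNα1 and IFNγ 100 ng/ml 1 was called without a duration term or within the 2 h and 6 h libraries and 5 within the 12 h and 24 h libraries. The slopes under IFNα1 gave 1 call by DESeq2, and the slope in culture gave 0 without the filter. Leaving out 1 duration gave 2 to 3 calls under IFNγ 1 ng/ml, 1 under TNF 1 ng/ml each time, 0 to 2 under TGF-β, 2 to 4 for the combination against TNF 10 ng/ml, 0 to 3 between the TNF doses and 1 to 4 between IFNα1 and IFNγ 100 ng/ml. For slopes it gave 0 to 1 in the combination, under IFNα1, under TGF-β and in culture, and 0 to 2 under IFNγ 1 ng/ml. The causes of these moves were not tested. With the longest transcript as length, the levels without cytokine became 9.002 CPM per kilobase for Ifngr1, 28.25 for Ifnar1, 54.8 for Tnfrsf1a and 38.97 for Tgfbr1. Depth limits Il2rb, with 2 to 16 counts a library.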
